A study of Mus musculus with 12 samples.

Results

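Carbon tetrachloride (CCl4) was compared with its mineral oil vehicle in whole liver of wild type mice, across all 15841 genes listed for these animals and in 6 of the 12 libraries of the series, 3 on CCl4 and 3 on oil. Female C57BL/6 mice, 8 weeks old at the start, had been given 0.8 ml/kg CCl4 in mineral oil, or mineral oil alone, into the peritoneal cavity 2 times a week over 8 weeks, and the perfused livers were taken 48 h after the last dose. Both groups therefore carried mineral oil, and no liver of an uninjected mouse was analysed here. The other 6 libraries came from *Lcn2*-/- mice, which lack lipocalin 2, a secreted protein that binds bacterial iron carriers, and which had received the same injections (3 libraries on CCl4, 3 on oil). They are used only where the response to CCl4 was compared between the genotypes. The replicates are numbered 1 to 3 in each group without a statement of which mouse each came from, so the spread behind the p-values is that of these libraries and may be technical. RNA came from whole tissue, so that fewer cells of a type and less RNA per cell cannot be told apart. The labels name a kit that reads the 3′ ends of polyadenylated RNA, and values are CPM, the reads of a gene scaled to a fixed total per library. The CCl4 libraries held 8810358 to 14591487 reads and the oil libraries 8318734 to 10993062, at which 3 reads correspond to 0.206 to 0.361 CPM.

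In the liver, CCl4 is turned into a reactive radical by cytochrome P450 enzymes, mainly Cyp2e1, in the hepatocytes around the central vein, and these cells die. Surviving hepatocytes divide to replace them, resident macrophages (Kupffer cells) and monocytes from the blood clear the debris, and hepatic stellate cells turn into contractile myofibroblasts that lay down collagen. Repeated dosing makes this cycle chronic and is a standard way to produce liver fibrosis in mice. Hepatocytes differ along the path of the blood, with urea and glucose production towards the portal vein and glutamine synthesis and most drug metabolism towards the central vein.

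The tissue carried the transcripts that define hepatocytes. *Alb*, the gene of serum albumin, was at 54054, 60704 and 65175 CPM on CCl4 and 58440.4, 53138 and 37026 CPM on oil. *Ttr*, a hormone carrier made by hepatocytes, was at 9672, 9837 and 9795 CPM on CCl4 and 6974, 7554 and 6849 CPM on oil. Neither passed the test (adjusted p = 0.62 and 0.1, limma). The first principal component of log2(CPM + 1), with 71.1% of the variance, separated the treatments, with CCl4 library 1 furthest out. The second, with 9.95%, set oil library 3 apart. Spearman correlations across genes were 0.972 to 0.982 within groups and 0.913 to 0.938 between them.

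On CCl4, many genes of cell division and collagen and many markers of scar macrophages were higher (the plot of every gene on CCl4 and oil). Many genes were lower among those of pericentral metabolism, major urinary proteins and acute phase proteins. Of the 15841 genes, 2931 (18.5%) were called higher on CCl4 and 504 (3.18%) lower, where a call needed an adjusted p (Benjamini-Hochberg, limma on log2(CPM + 1)) no greater than 0.05 and a log2 fold change beyond 0.56, that is 1.47-fold. This surplus of higher genes hung on the scale. Abundant genes were among those lower, and the 504 genes called lower took 14.3, 16.2 and 20.8% of all reads in oil libraries 1 to 3 and 7.27, 7.30 and 6.48% in the CCl4 libraries. On the CPM scale, the median gene was 0.27 higher on CCl4 as a log2 fold change. After division by median-of-ratios size factors the median was 0.013, and the calls were 1168 higher (7.37%) and 1110 lower (7.01%). TMM scaling gave 1199 and 1080 with a median of 0.021. Every list is therefore given below as its calls on CPM followed by its calls after size factors, and its median is to be read against 0.27. Of 48 list counts of at most 2 genes, 28 changed when a library was left out, 1 of them by more than 2 genes. A gene said to have risen or fallen passed the test on CPM, after size factors and without each library in turn, unless an exception is named. Of all genes, 37.6% lay higher in each CCl4 library than in each oil library and 6.82% lower, values against which such counts are to be read.

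**Figure D1:**
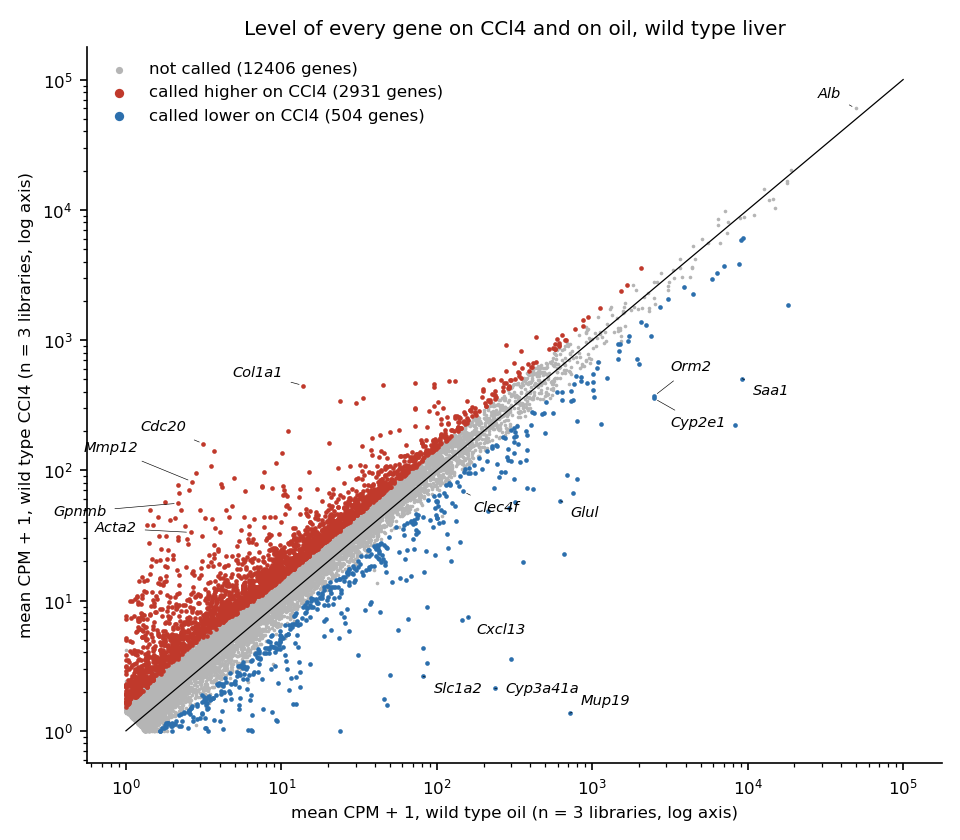
Mean level of each of the 15841 genes in wild type liver on oil (x axis) and on CCl4 (y axis), as CPM + 1 on log axes, n = 3 libraries each, with the line of equality in black. Red points are the 2931 genes called higher and blue points the 504 called lower on CPM; with size factors the split was 1168 and 1110. *Mup19* and *Cyp3a41a* lie lowest on the right, *Cdc20*, *Mmp12* and *Col1a1* highest on the left.

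Mitosis was the most uniform response among the lists. Of 58 measured genes of mitosis and the kinetochore, the structure that ties chromosomes to the spindle, 57 were called higher and 0 lower, against a background of 18.5% higher, and 57 were called higher after size factors and without any single library too. Their median log2 fold change was 3.38 (3.13 with size factors). Their summed level was 3007, 2184 and 2173 CPM in CCl4 libraries 1 to 3 and 215, 199 and 217 CPM in the oil libraries, so the groups lay far apart and CCl4 library 1 was highest. *Cdc20*, which activates the anaphase-promoting complex (chr4:118432901-118437352, mm10), had the largest rise of all genes with a mean of at least 5 CPM, at 220.3, 129.8 and 127 CPM on CCl4 and 1.73, 1.68 and 3.01 CPM on oil (log2 fold change 5.65, SE 0.217, adjusted p = 2.6e-10). *Cdca3*, part of a ubiquitin ligase that clears an inhibitor of mitotic entry, was at 166, 141 and 109 CPM on CCl4 and 2.27, 3.48 and 2.28 CPM on oil (log2 fold change 5.24, SE 0.184, adjusted p = 1.2e-10). Cyclin B2 (*Ccnb2*) gave 85.8, 70.3 and 72.8 CPM on CCl4 and 0.728, 0.6 and 2.16 CPM on oil, with a log2 fold change of 5.22. For each of these genes every CCl4 library stood over 10-fold above every oil library. The kinase that cyclin B switches on, *Cdk1*, was at 90.3, 64.9 and 63.4 CPM on CCl4 and 3.09, 2.64 and 3.73 CPM on oil (log2 fold change 4.14, SE 0.183, adjusted p = 9.2e-10). Similar rises were found for *Birc5* (survivin, of the chromosomal passenger complex, log2 fold change 5.14), *Nek2* (a centrosome kinase, 5.11), *Ube2c* (the ubiquitin carrier of the anaphase-promoting complex, 4.90), *Ccnb1* (cyclin B1, 4.84), *Hmmr* (a spindle protein, 4.82), *Knstrn* (a kinetochore protein, 4.93) and *Stmn1* (stathmin, which takes microtubules apart, 4.16).

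The promoters of these genes are shown because the list moved together. In mice and human cells, many G2 and mitosis genes carry a CHR element (TTTGAA), bound by the DREAM and MuvB complexes, and CCAAT boxes, bound by NF-Y. RefSeq start sites on GRCm38.p6 gave a promoter of 300 bases (250 before the start and 50 after it) for 44 of the 57 genes called. The letters TTTGAA or TTCAAA, its other strand, were found in 34 of the 44 (77.3%), in 12.7% of 11447 measured genes with a promoter and in 17.9% of all 32851 promoters. CCAAT or its other strand ATTGG was found in 35 of 44 (79.5%), against 38.6% and 37.4%. Both sets of letters were present in 30 of 44 (68.2%), against 5.25% and 6.95%. They overlapped in 1 of the 44. Of 81 CCAAT occurrences in the 44 promoters, 53 began in the 100 bases before the start. Among called DNA replication genes, 6 of 39 promoters (15.4%) held TTTGAA and 23 of 39 (59.0%) CCAAT, and among called collagen chains 2 of 14 (14.3%) and 5 of 14 (35.7%). These are matches of letters, not measured binding sites. The 3 promoters below belong to the genes with the largest rises that have a promoter in the RefSeq table, printed 5′ to 3′ on the strand of the gene, with TTTGAA and CCAAT (either strand) in capitals. *Cdc20* lies on the minus strand at chr4:118437294-118437593, *Ccnb2* on the minus strand at chr9:70421505-70421804 and *Cdca3* on the plus strand at chr6:124829926-124830225.
Cdc20: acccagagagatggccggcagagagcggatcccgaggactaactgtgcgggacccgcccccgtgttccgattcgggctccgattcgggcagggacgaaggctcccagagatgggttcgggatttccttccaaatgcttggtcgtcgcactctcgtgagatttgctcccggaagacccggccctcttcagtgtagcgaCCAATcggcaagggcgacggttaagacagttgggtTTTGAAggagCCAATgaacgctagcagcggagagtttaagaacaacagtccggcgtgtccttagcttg
Ccnb2: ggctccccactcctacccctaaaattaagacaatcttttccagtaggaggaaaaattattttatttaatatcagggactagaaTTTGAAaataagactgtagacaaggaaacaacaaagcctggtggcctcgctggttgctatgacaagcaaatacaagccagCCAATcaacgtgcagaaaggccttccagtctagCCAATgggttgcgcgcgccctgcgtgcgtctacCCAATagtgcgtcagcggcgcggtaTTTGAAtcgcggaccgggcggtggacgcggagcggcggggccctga
Cdca3: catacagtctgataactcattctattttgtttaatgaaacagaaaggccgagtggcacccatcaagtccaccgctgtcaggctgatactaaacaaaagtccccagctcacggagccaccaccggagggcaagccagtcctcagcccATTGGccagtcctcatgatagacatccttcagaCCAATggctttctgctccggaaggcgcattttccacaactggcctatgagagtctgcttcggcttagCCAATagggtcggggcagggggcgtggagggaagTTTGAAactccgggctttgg
In *Cdc20*, CCAAT began 53 and 8 bases before the start, with TTTGAA between them at 18 bases before it. In *Ccnb2*, CCAAT stood 87, 54 and 21 bases before the start.

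DNA replication followed at smaller folds. Of 56 measured replication genes 48 were called higher and 0 lower (43 and 1 with size factors, 42 to 49 higher with a library left out), with a median of 1.32. *Rrm2*, a subunit of the enzyme that makes deoxyribonucleotides, was at 95.8, 61.5 and 49.5 CPM on CCl4 and 5.28, 3.96 and 5.17 CPM on oil (log2 fold change 3.55, SE 0.212, adjusted p = 2.0e-08). *Tyms*, which makes thymidylate, was at 65.3, 48.0 and 45.4 CPM on CCl4 and 10.7, 9.84 and 8.90 CPM on oil (log2 fold change 2.30), and *Mcm6*, part of the helicase that opens replication origins, rose by 2.62 on the log2 scale. All 3 genes had every CCl4 library above every oil library. Among 24 G1 cyclins and cell cycle inhibitors, 16 were higher and 0 lower (10 and 0 with size factors), among them *E2f1* and *E2f2*, transcription factors of S phase (1.85 and 1.97), *Cks1b*, a cofactor of cyclin-dependent kinases (2.62), and the kinase inhibitors *Cdkn2c* (1.76) and *Cdkn2d* (1.70). Of 34 p53 targets 13 were higher and 1 lower (6 and 1 with size factors). *Ckap2*, a spindle protein, led them (4.75), and *Fas*, a death receptor, fell by 0.73 on the log2 scale. *Cdkn1a*, the p21 inhibitor, was at 37.7, 29.3 and 32.0 CPM on CCl4 and 8.19, 24.5 and 39.1 CPM on oil, and did not pass the test (log2 fold change 0.68, adjusted p = 0.17, limma). Without oil library 3 it was called higher (log2 fold change 1.14, adjusted p = 0.021), and without oil library 1 its log2 fold change was 0.082.

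Collagen and the proteins around it rose. Of 25 measured collagen chains 18 were called higher and 0 lower (12 and 1 with size factors, 14 to 18 higher with a library left out), with a median log2 fold change of 0.90 (0.66 with size factors). Summed over the chains, the level was 2438, 1658 and 1701 CPM on CCl4 and 693, 700.1 and 718 CPM on oil, with CCl4 library 1 highest. *Col1a1*, a chain of type I collagen and the main scar collagen (chr11:94936224-94953042, mm10), was at 668, 345 and 328 CPM on CCl4 and 12.5, 15.1 and 10.8 CPM on oil (log2 fold change 4.95, SE 0.212, adjusted p = 7.8e-10). *Col1a2*, the other chain of type I collagen, was at 482, 274 and 269.7 CPM on CCl4 and 18.01, 24.6 and 25.7 CPM on oil (log2 fold change 3.81, SE 0.193, adjusted p = 3.5e-09). *Col3a1*, of type III collagen, was at 389, 283 and 311 CPM on CCl4 and 28.7, 27.5 and 30.9 CPM on oil (log2 fold change 3.44, SE 0.125, adjusted p = 1.6e-10). No CCl4 value of these 3 genes came near an oil value, while the oil libraries differed little among themselves. *Col6a3*, of the beaded type VI collagen, rose by 3.33 and *Col4a2*, of basement membrane, by 1.65 on the log2 scale.

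Of 39 glycoproteins and proteoglycans of the matrix, 23 were higher and 3 lower (22 and 3 with size factors, median 1.09). Those higher included *Fbn1*, which builds microfibrils (log2 fold change 2.51), *Nid1* of basement membrane (2.45), *Dpt* (1.90), *Sparc*, which binds collagen (1.72), and *Lum*, which spaces collagen fibrils (1.56). *Ecm1*, which in mouse liver holds latent TGF-β inactive, fell, from 93.2, 83.1 and 93.04 CPM on oil to 45.8, 32.9 and 42.9 CPM on CCl4 (log2 fold change -1.14, SE 0.133, adjusted p = 2.1e-05), and *Efemp1*, a fibulin, by 0.88 on the log2 scale. Among 38 matrix proteases, their inhibitors and crosslinking enzymes 22 were higher and 0 lower (18 and 1 with size factors, 16 to 22 higher with a library left out). They included *Loxl2*, which crosslinks collagen (2.03), *Serpinh1*, the collagen chaperone (1.70), *Adamts5*, which cuts proteoglycans (1.76), and *Mmp13*, the interstitial collagenase of the mouse, at 5.30, 3.77 and 5.56 CPM on CCl4 and 0.546, 0 and 0 CPM on oil (log2 fold change 2.33, SE 0.276, adjusted p = 2.6e-05). *Mmp2*, a gelatinase, was at 6.85, 6.65 and 7.83 CPM on CCl4 and 2.37, 2.04 and 1.56 CPM on oil (log2 fold change 1.45). *Timp1*, an inhibitor of these proteases, was at 29.7, 11.1 and 9.19 CPM on CCl4 and 3.82, 6.84 and 6.37 CPM on oil and passed on CPM (log2 fold change 1.26, SE 0.341, adjusted p = 0.013) but not after size factors, nor without CCl4 library 1 (log2 fold change 0.77, adjusted p = 0.067, limma) or oil library 1 (1.04, adjusted p = 0.056).

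Markers of stellate cells and myofibroblasts moved in both directions. Of 25 measured, 11 were called higher and 4 lower (7 and 4 with size factors). Summed over the list, the groups overlapped, at 757, 522 and 613 CPM on CCl4 and 613, 576 and 689 CPM on oil. Those called lower were *Ecm1*, *Steap4*, *Colec10* (-0.83) and *Angptl6* (-0.79). Without CCl4 library 1 the higher count was 7, and the lower count was 2 without CCl4 library 1, CCl4 library 2, oil library 1 or oil library 2. *Colec10* lost its call in those fits, and *Angptl6* lost its call without each library in turn. *Acta2*, smooth muscle actin and the classic mark of a myofibroblast (chr19:34241090-34255590, mm10), was at 60.2, 18.9 and 18.05 CPM on CCl4 and 1.46, 1.92 and 1.44 CPM on oil (log2 fold change 3.46, SE 0.354, adjusted p = 6.3e-06), with CCl4 library 1 over 3-fold above the other 2. *Tagln* (2.43) and *Myl9* (2.27), both of the contractile apparatus, rose with it, as did *Pdgfrb*, the PDGF receptor of stellate cells (1.59), and *Rgs5*, a pericyte marker (1.01). Of 28 genes of TGF-β and PDGF signaling, 10 were higher and 0 lower (6 and 2 with size factors, and 6 higher without CCl4 library 1 or oil library 2), with *Tgfbr1* and *Tgfbr2*, the TGF-β receptors, at 0.91 and 1.04, the ligand *Pdgfa* at 1.19, and the inhibitors *Fst* (follistatin) and *Bambi* at 2.07 and 1.58. *Tgfb1* itself, at 8.06, 4.39 and 6.13 CPM on CCl4 and 3.002, 2.40 and 3.49 CPM on oil, passed on CPM (log2 fold change 0.84) but not after size factors (0.56), nor without CCl4 library 1 (0.65), CCl4 library 3 (0.83), oil library 1 (0.85) or oil library 2 (0.73), where the adjusted p exceeded 0.05.

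**Figure D2:**
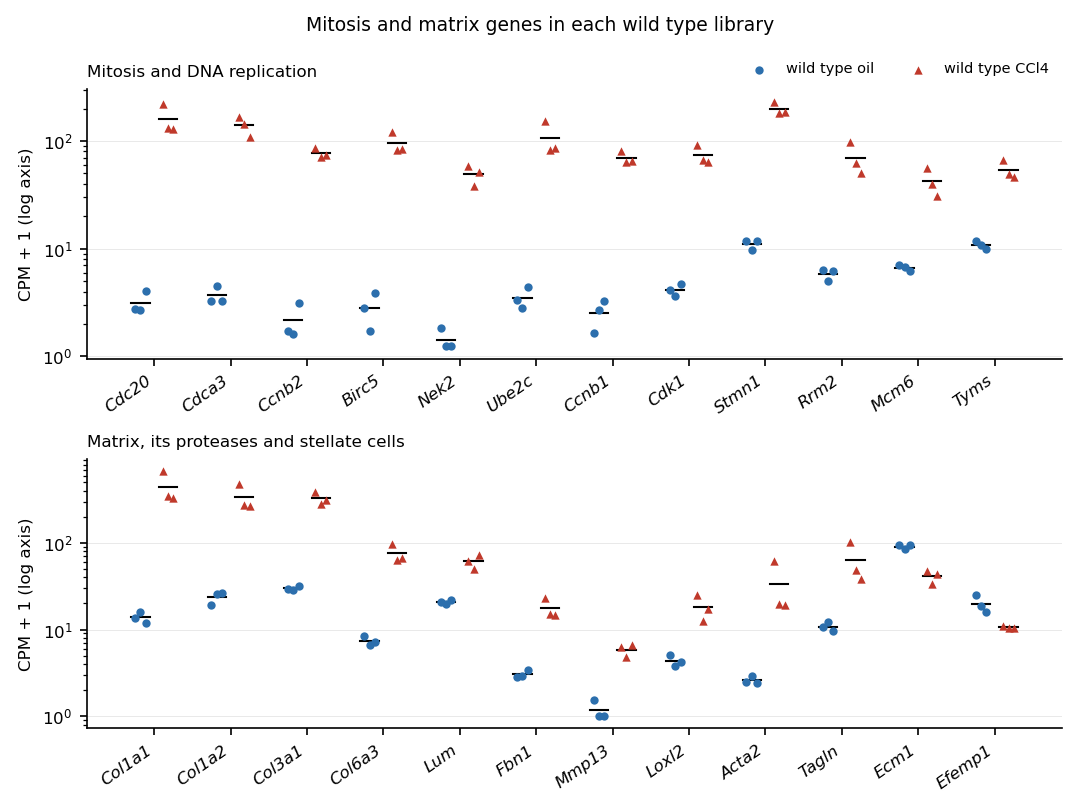
CPM + 1 on a log axis in each wild type library, oil as blue circles and CCl4 as red triangles, with a black bar at the mean of n = 3. In the upper panel all CCl4 libraries lie above all oil libraries, as they do for the collagens and *Acta2* below, whereas *Ecm1* and *Efemp1* lie lower on CCl4.

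Many markers of scar macrophages were higher. Of 23 markers of lipid-associated and scar macrophages, which gather around dead cells and fat, 14 were called higher and 0 lower (11 and 2 with size factors, 13 to 15 higher with a library left out), with a median of 0.82. Summed over the list, the groups overlapped, at 17570.2, 16877 and 18323 CPM on CCl4 and 17674, 17395 and 19040.4 CPM on oil. *Mmp12*, the macrophage elastase (chr9:7344381-7369499, mm10), was at 93.5, 71.1 and 78.3 CPM on CCl4 and 1.001, 1.32 and 2.64 CPM on oil (log2 fold change 4.99, SE 0.221, adjusted p = 9.2e-10). *Gpnmb*, a lysosomal membrane glycoprotein, was at 45.3, 60.6 and 58.8 CPM on CCl4 and 0.637, 2.28 and 0.601 CPM on oil (log2 fold change 4.76, SE 0.266, adjusted p = 8.9e-09). *Trem2*, a lipid-sensing receptor, was at 40.5, 26.1 and 37.7 CPM on CCl4 and 3.46, 2.52 and 2.16 CPM on oil (log2 fold change 3.26, SE 0.22, adjusted p = 7.7e-08). The groups were fully apart for the 3 genes. *Lpl*, lipoprotein lipase, rose by 2.70 and *Cd63*, of late endosomes, by 2.87 on the log2 scale. Monocyte and inflammatory macrophage markers, 36 in all, gave 7 higher and 2 lower (5 and 3 with size factors, and 5 to 10 and 0 to 4 with a library left out), so the share called higher was near the 18.5% of all genes. The 2 called lower were *Adgre4* (-1.07) and *Csf1r* (-0.58), and neither kept its call without CCl4 library 1. *Csf1r* also lost its call without CCl4 library 2, oil library 1 or oil library 2. The receptors that draw monocytes from the blood, *Ccr2* (23.8, 15.6 and 12.7 CPM on CCl4 and 3.55, 3.599 and 0.721 CPM on oil, log2 fold change 2.43) and *Cx3cr1* (17.2, 11.7 and 14.5 CPM on CCl4 and 3.09, 3.48 and 2.16 CPM on oil, 1.99), rose, as did *Ms4a7* (2.21) and the integrin *Itgax* (2.26).

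Some markers of resident Kupffer cells were lower. Of 19 measured 0 were higher and 6 lower (0 and 6 with size factors, 5 to 6 lower with a library left out), against 3.18% of all genes. Summed over the list, the groups overlapped, at 1264, 1194 and 1818 CPM on CCl4 and 2067, 1819 and 1257 CPM on oil. *Clec4f*, a lectin particular to mouse Kupffer cells, was at 56.3, 55.9 and 91.5 CPM on CCl4 and 151, 165 and 123 CPM on oil (log2 fold change -1.12, SE 0.169, adjusted p = 2.3e-04). *Timd4*, which binds dying cells, was at 3.86, 6.10 and 12.5 CPM on CCl4 and 45.6, 36.9 and 18.8 CPM on oil (log2 fold change -2.08, SE 0.336, adjusted p = 4.1e-04), and *Cd163*, the hemoglobin scavenger receptor, was at 4.75, 3.63 and 6.36 CPM on CCl4 and 22.7, 23.3 and 13.8 CPM on oil (log2 fold change -1.82, SE 0.242, adjusted p = 7.7e-05). All 3 genes lay lower in each CCl4 library than in any oil library. *Folr2* also fell, by 1.01 on the log2 scale. *Adgre1*, which encodes F4/80, a marker of Kupffer cells and other macrophages, was at 42.6, 41.4 and 69.0 CPM on CCl4 and 57.0, 47.3 and 32.8 CPM on oil (adjusted p = 0.62, limma).

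Some neutrophil markers were lower, and lymphocyte genes gave few calls. Of 22 neutrophil markers 0 were higher and 4 lower (0 and 5 with size factors, 3 to 5 lower with a library left out). Of all genes 3.18% were called lower on CPM and 7.01% with size factors. Summed over the neutrophil list, the groups overlapped, at 724, 541 and 518 CPM on CCl4 and 563, 1069 and 1348 CPM on oil. *S100a8*, a subunit of the calcium-binding protein calprotectin, was at 42.8, 33.3 and 31.6 CPM on CCl4 and 76.3, 113 and 92.6 CPM on oil (log2 fold change -1.36, SE 0.153, adjusted p = 1.5e-05), and *S100a9*, its partner, fell by 0.92 on the log2 scale. *Prtn3*, proteinase 3 of neutrophil granules, was at 18.99, 13.6 and 7.72 CPM on CCl4 and 25.7, 70.7 and 90.4 CPM on oil (log2 fold change -2.04, SE 0.361, adjusted p = 8.3e-04). Oil library values were above all CCl4 values for each of them. *Mpo*, myeloperoxidase, at 0.883, 0.754 and 0.568 CPM on CCl4 and 0.364, 2.16 and 1.44 CPM on oil, and *Ly6g*, at 0.221, 0.343 and 0.114 CPM on CCl4 and 0.091, 1.08 and 0.24 CPM on oil, did not pass. Of 24 T and NK cell markers 3 were higher and 0 lower (1 higher without CCl4 library 1), of 26 B and plasma cell markers 2 and 1 (0 higher without CCl4 library 3 or oil library 2, 4 higher without oil library 1, and 1 without each of the others), and of 25 dendritic cell and MHC class II genes 4 and 0 (2 higher without oil library 3). With size factors these counts were 2 and 0, 0 and 1, and 2 and 0. *Cd209a*, a dendritic cell lectin, had no read in the oil libraries and 1.44, 0.959 and 1.48 CPM on CCl4, at least 3.90-fold higher against 3 reads per library. Its call was lost only with a pseudocount of 5 in place of 1.

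Among 37 chemokines and their receptors 10 were higher and 2 lower (5 and 3 with size factors), and the higher count was 5 without oil library 2 and 6 without oil library 3. *Ccl9*, a macrophage chemokine, rose by 1.67 and *Ccr1*, its receptor, by 1.41 on the log2 scale. *Cxcl13*, which attracts B cells, was at 1.10, 1.64 and 16.7 CPM on CCl4 and 313, 136 and 25.5 CPM on oil (log2 fold change -4.50, SE 0.761, adjusted p = 5.8e-04). It fell in every case, with a log2 fold change of -5.47 without CCl4 library 3, -5.49 without oil library 3 and -3.71 without oil library 1. *Cxcl1*, which attracts neutrophils, was at 20.2, 15.8 and 11.01 CPM on CCl4 and 42.8, 67.9 and 134 CPM on oil (log2 fold change -2.19, SE 0.301, adjusted p = 1.0e-04). Of 36 cytokines and receptors 5 were higher and 2 lower (2 and 8 with size factors, and 3 higher without CCl4 library 1 or oil library 3). *Tnfrsf12a*, the receptor of TWEAK, rose by 2.05, and *Il6ra*, the interleukin 6 receptor, and *Il18* fell by 0.73 and 0.74 on the log2 scale.

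Pericentral hepatocyte genes were lower. Of 31 measured 15 were called lower and 6 higher (18 and 3 with size factors, and 3 higher without oil library 2), with a median log2 fold change of -0.43, or -0.77 with size factors. *Glul*, glutamine synthetase of the innermost hepatocyte ring (chr1:153899944-153909723, mm10), was at 52.1, 49.7 and 70.4 CPM on CCl4 and 639, 563 and 666 CPM on oil (log2 fold change -3.43, SE 0.131, adjusted p = 2.6e-10), so oil levels were 10.9 times those on CCl4. *Slc1a2*, a glutamate transporter of the same cells, was at 2.21, 0.959 and 1.70 CPM on CCl4 and 96.0, 68.1 and 77.5 CPM on oil (log2 fold change -4.97, SE 0.21, adjusted p = 7.1e-10). *Oat*, ornithine aminotransferase, was at 84.1, 88.8 and 101 CPM on CCl4 and 814, 623 and 614 CPM on oil (log2 fold change -2.89, SE 0.125, adjusted p = 7.9e-10). *Cyp2e1*, the enzyme that activates CCl4 (chr7:140763739-140774987, mm10), was at 367, 325 and 378 CPM on CCl4 and 2713, 2621 and 2125 CPM on oil (log2 fold change -2.79, SE 0.13, adjusted p = 1.6e-09). For the 4 genes the replicates lay close together and the groups were apart by several fold. Not all pericentral genes fell: *Gstm3*, a glutathione transferase, rose by 1.90 and *Slc1a4*, an amino acid transporter, by 1.46 on the log2 scale.

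Of 24 periportal genes 8 were higher and 2 lower on CPM, a direction that was almost even with size factors (4 and 3, median 0.044). *Aldh1b1*, a mitochondrial aldehyde dehydrogenase, was at 275, 299 and 316 CPM on CCl4 and 66.2, 69.8 and 77.8 CPM on oil (log2 fold change 2.04, SE 0.107, adjusted p = 5.0e-09), and *Hsd17b13*, of lipid droplets, and *Uroc1*, of histidine breakdown, rose by 1.08 and 0.91 on the log2 scale. *Pck1*, the key enzyme of glucose synthesis, was at 146, 354 and 589.8 CPM on CCl4 and 771, 1261 and 1029 CPM on oil (log2 fold change -1.67, SE 0.34, adjusted p = 0.0023). Of 45 genes of the urea cycle and amino acid breakdown 7 were higher and 4 lower on CPM, but 2 and 10 with size factors. *Cps1*, the entry enzyme of the urea cycle, was called higher on CPM (0.64) and not after size factors (0.30), and *Mat1a*, which makes S-adenosylmethionine, fell by 0.77.

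Drug-metabolizing enzymes changed in both directions. Of 49 cytochrome P450 genes 10 were higher and 13 lower (4 and 21 with size factors), and the higher count was 6 without CCl4 library 3 and 5 without oil library 2 or 3. *Cyp2c55* was at 71.1, 67.3 and 119 CPM on CCl4 and 4.00, 4.68 and 3.25 CPM on oil (log2 fold change 4.09, SE 0.207, adjusted p = 3.5e-09). *Cyp2b10*, a target of the nuclear receptor CAR, was at 391.6, 563 and 498 CPM on CCl4 and 161, 128 and 98.8 CPM on oil (log2 fold change 1.91, SE 0.164, adjusted p = 1.1e-06). *Cyp3a41a*, a female-biased enzyme, was at 1.10, 0.891 and 1.36 CPM on CCl4 and 300.3, 149 and 256 CPM on oil (log2 fold change -6.74, SE 0.217, adjusted p = 6.3e-11). Several of these genes have near-identical neighbours among which reads can be split, so the values of single *Cyp2c* and *Cyp3a* genes are uncertain. *Cyp2c38* and *Cyp2c69* fell by 4.25 and 3.98 on the log2 scale. Of 43 conjugating enzymes 13 were higher and 5 lower on CPM, and 5 and 10 with size factors. *Gsta1*, at 108, 107 and 123 CPM on CCl4 and 3.82, 11.8 and 9.02 CPM on oil, a glutathione transferase with close copies, rose (log2 fold change 3.74, SE 0.255, adjusted p = 8.9e-08), and *Sult3a1*, a sulfotransferase, at 1.88, 0.343 and 0 CPM on CCl4 and 78.4, 27.6 and 27.4 CPM on oil, fell (log2 fold change -4.68, SE 0.407, adjusted p = 1.2e-06).

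Bile acid genes were called in both directions: of 28 measured 10 were called lower and 5 higher (12 and 2 with size factors, and 3 higher without CCl4 library 2, CCl4 library 3 or oil library 2). *Cyp8b1*, which makes cholic acid, was at 44.5, 75.8 and 29.7 CPM on CCl4 and 298, 242 and 332 CPM on oil (log2 fold change -2.61, SE 0.233, adjusted p = 1.5e-06). *Cyp27a1*, of the acidic pathway, was at 106, 116 and 120.1 CPM on CCl4 and 365, 318 and 342 CPM on oil (log2 fold change -1.57, SE 0.104, adjusted p = 6.3e-08). *Slco1a1*, an uptake transporter, was at 0.773, 0.411 and 0 CPM on CCl4 and 10.6, 8.64 and 3.85 CPM on oil (log2 fold change -2.59, SE 0.342, adjusted p = 7.1e-05). All 3 genes had lower values in each CCl4 library. *Abcb1a*, an export pump, rose by 1.45, and *Cyp7a1*, the rate-limiting enzyme of the classic pathway, was called higher on CPM (0.73) but not after size factors (0.40), and not without CCl4 library 2 (0.51), CCl4 library 3 (0.65) or oil library 2 (0.73), where the adjusted p exceeded 0.05.

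Lipid genes differed by pathway. Of 25 genes of fatty acid and triglyceride synthesis 10 were higher and 2 lower (7 and 3 with size factors). *Pnpla3*, a lipase of lipid droplets, was at 25.6, 28.3 and 22.7 CPM on CCl4 and 2.37, 3.36 and 2.28 CPM on oil (log2 fold change 2.86, SE 0.209, adjusted p = 1.8e-07). *Scd2*, a desaturase, was at 80.7, 108 and 215 CPM on CCl4 and 11.8, 7.198 and 8.29 CPM on oil (log2 fold change 3.65, SE 0.268, adjusted p = 2.0e-07). *Srebf1*, the transcription factor of this pathway, rose by 1.62 and its target *Acly* by 1.12, while *Elovl3*, an elongase, fell by 2.56 on the log2 scale. Of 26 cholesterol synthesis and uptake genes 3 were higher and 6 lower (0 and 13 with size factors), those lower including *Hmgcs1* (-1.09), *Idi1* (-1.07) and *Msmo1* (-1.15), 3 enzymes of the pathway. Fatty acid oxidation gave 4 higher and 2 lower of 39 (2 and 7 with size factors). *Angptl4*, an inhibitor of lipoprotein lipase, was at 10.8, 21.8 and 39.7 CPM on CCl4 and 86.6, 109 and 158 CPM on oil (log2 fold change -2.37, SE 0.319, adjusted p = 8.3e-05). Of 29 apolipoproteins and lipid carriers 7 were higher and 4 lower on CPM (4 and 9 with size factors), with *Apoa4* at 471, 445 and 432 CPM on CCl4 and 48.8, 44.9 and 39.4 CPM on oil (log2 fold change 3.32, SE 0.108, adjusted p = 6.3e-11), *Apoc2* at 1.72, *Apoa5* at -1.28 and *Pltp*, the phospholipid transfer protein, at -1.65 on the log2 scale. In glucose metabolism 8 of 30 genes were higher and 1 lower (5 and 3 with size factors), among them *Pkm*, the pyruvate kinase of dividing cells (1.08), and *Pgd*, of the pentose phosphate pathway (1.17).

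**Figure D3:**
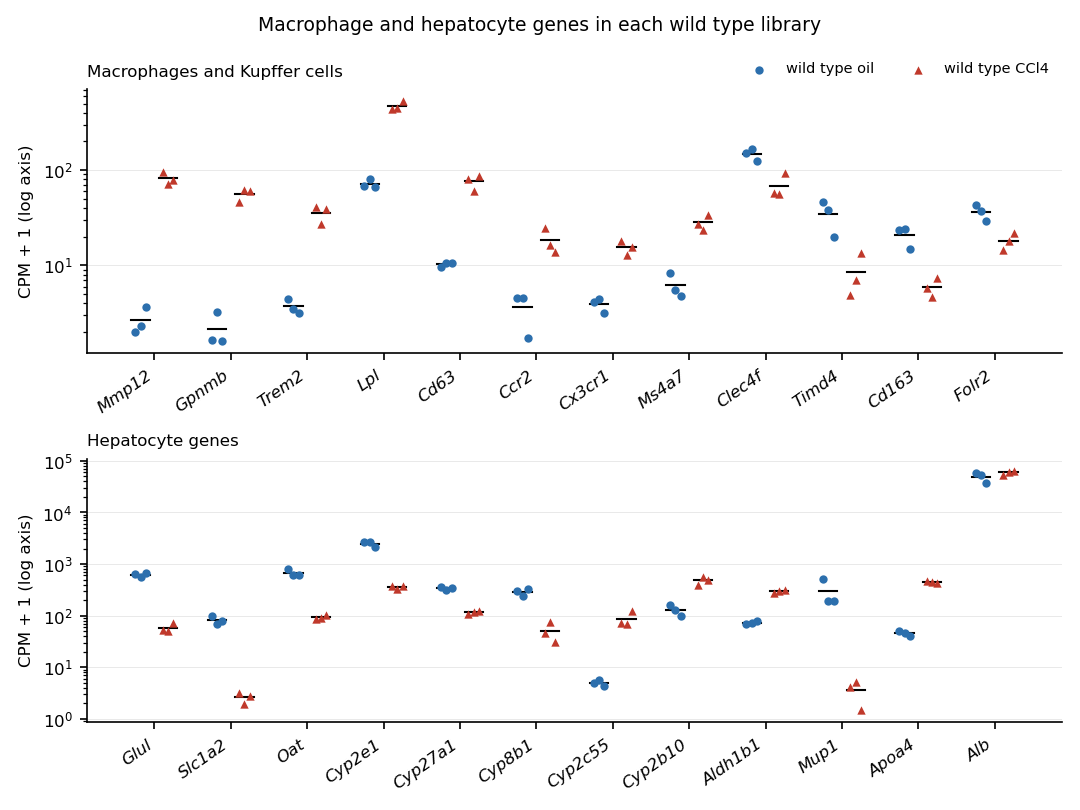
CPM + 1 on a log axis in each wild type library, oil as blue circles and CCl4 as red triangles, with a black bar at the mean of n = 3. The scar macrophage and monocyte genes shown lie higher on CCl4 and the Kupffer cell genes shown lower (upper panel). They were picked among called genes. In sign, 4 of 23 scar macrophage, 11 of 36 monocyte and 8 of 19 Kupffer cell markers went the other way. *Glul*, *Slc1a2*, *Oat* and *Cyp2e1* lie lower on CCl4, *Cyp2c55* and *Aldh1b1* higher, and the *Alb* values overlap (lower panel).

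Major urinary proteins, pheromone carriers secreted by the liver under growth hormone, included the largest fall among the named genes. Of 31 genes of this family and the growth hormone axis 21 were called lower and 0 higher (23 and 0 with size factors, 18 to 20 lower with a library left out), with a median of -0.80. *Mup19* was at 0, 1.10 and 0 CPM on CCl4 and 492, 194 and 1459 CPM on oil (log2 fold change -8.67, SE 0.494, adjusted p = 1.1e-08), with a log2 fold change of -9.37 without oil library 2 and -7.92 without oil library 3. *Mup1* was at 3.09, 4.04 and 0.454 CPM on CCl4 and 507, 195 and 190.3 CPM on oil (log2 fold change -6.42, SE 0.399, adjusted p = 3.0e-08). *Mup14* was at 2636, 2626 and 359.7 CPM on CCl4 and 21119.8, 15665 and 17963 CPM on oil (log2 fold change -3.74, SE 0.531, adjusted p = 1.4e-04), with a log2 fold change of -2.78 without CCl4 library 3. In each gene the CCl4 libraries lay below the oil libraries. The *Mup* genes are near-identical copies, so reads can be split among them, and single members are uncertain. Of the 19 *Mup* genes measured, 15 were called lower and 0 higher, on CPM and with size factors alike.

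Acute phase proteins, which the liver secretes in response to interleukin 6 and interleukin 1, were lower on CCl4 than on oil. Of 32 measured 20 were called lower and 1 higher (23 and 0 with size factors, 17 to 22 lower with a library left out), and 21 lay lower in each CCl4 library than in each oil library, against 6.82% of all genes. *Lbp*, which carries bacterial lipopolysaccharide, was at 58.3, 84.0 and 76.2 CPM on CCl4 and 240.1, 236 and 222 CPM on oil (log2 fold change -1.68, SE 0.128, adjusted p = 2.8e-07). *Orm2*, an orosomucoid, was at 331, 430.3 and 349 CPM on CCl4 and 1002, 2657 and 3821 CPM on oil (log2 fold change -2.56, SE 0.326, adjusted p = 5.3e-05). *Saa1*, serum amyloid A1, was at 561, 728 and 224 CPM on CCl4 and 1049.9, 8462 and 18135 CPM on oil (log2 fold change -3.59, SE 0.707, adjusted p = 0.0018). The oil libraries were spread widely here: *Saa1* differed by more than an order of magnitude between oil libraries 1 and 3, and its log2 fold change was -4.78 without oil library 1 and -2.72 without oil library 3. *Saa2*, with *Saa1* a pair of near-identical genes whose single values are uncertain, was at 256, 311 and 93.2 CPM on CCl4 and 552, 7182 and 17294 CPM on oil, with a log2 fold change of -4.38, or -5.83 and -3.34 without the same libraries. *Mt2*, a metallothionein that binds zinc, was at 298, 232 and 142 CPM on CCl4 and 779, 1333 and 1308 CPM on oil (log2 fold change -2.37, SE 0.234, adjusted p = 4.3e-06), and *Steap4*, a metal reductase, was at 120.0, 118 and 120.4 CPM on CCl4 and 236, 254 and 373 CPM on oil (log2 fold change -1.23, SE 0.144, adjusted p = 2.3e-05). *Saa4* and *Orm3* fell by 1.60 and 2.48 on the log2 scale. *Lcn2*, lipocalin 2 itself, was at 557, 424 and 405 CPM on CCl4 and 345, 739 and 1045 CPM on oil and did not pass the test (log2 fold change -0.49, adjusted p = 0.2, limma). Its oil libraries ran from below to above the CCl4 range, and it was called lower without oil library 1 (-0.94) and by edgeR on recovered reads (-0.97, adjusted p = 0.034).

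Of 37 complement and coagulation genes 0 were higher and 9 lower on CPM, and 0 and 22 with size factors. *C6*, *C1ra* and *Mbl1*, all of the complement system, fell by 1.01, 0.69 and 0.80 on the log2 scale. Of 38 interferon-stimulated genes 1 was higher and 7 lower (1 and 12 with size factors), with *Irf7* at -0.74, *Gbp2* at -0.83 and *Iigp1* at -0.91. Iron genes gave 3 higher and 2 lower of 21 on CPM, but 2 and 4 with size factors. The higher count was 1 without oil library 3 and 2 without CCl4 library 2 or 3, and the lower count 0 without CCl4 library 3 or oil library 2, 1 without oil library 3 and 3 without oil library 1. *Tfrc*, the transferrin receptor, rose, at 27.7, 20.6 and 29.2 CPM on CCl4 and 9.19, 12.5 and 4.93 CPM on oil (log2 fold change 1.51, SE 0.253, adjusted p = 5.5e-04). *Hamp*, hepcidin, was at 1169, 1036 and 607 CPM on CCl4 and 1361, 1528 and 1611 CPM on oil and passed (log2 fold change -0.73), but not without CCl4 library 3 (-0.44) or oil library 2 (-0.71), where the adjusted p exceeded 0.05.

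Stress genes moved unevenly. Of 41 NRF2 targets and metallothioneins 18 were higher and 4 lower on CPM, and 10 and 9 with size factors. *Srxn1*, which repairs oxidized peroxiredoxins, and *Nfe2l2*, the gene of NRF2, rose by 1.02 and 0.97 on the log2 scale. Endoplasmic reticulum stress genes gave 8 higher and 2 lower of 26 on CPM but 2 and 4 with size factors, and 3 higher without CCl4 library 1 or oil library 1 and 5 without CCl4 library 3. *Atf3*, a transcription factor of many stresses, was at 17.3, 12.3 and 6.92 CPM on CCl4 and 1.09, 1.20 and 1.32 CPM on oil (log2 fold change 2.501, SE 0.3, adjusted p = 2.9e-05). Of 23 immediate early genes 6 were higher and 2 lower (3 and 3 with size factors), with *Jun* at 1.30, *Myc* at 1.20 and *Klf10* at -0.96.

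Fetal and bile duct genes were partly raised. Of 19 oncofetal and imprinted genes 14 were higher and 1 lower (10 and 2 with size factors). *Afp*, α-fetoprotein, was at 17.997, 20.9 and 20.5 CPM on CCl4 and 0.546, 0.6 and 0.24 CPM on oil (log2 fold change 3.84, SE 0.243, adjusted p = 3.6e-08). *Ly6d*, a surface protein, was at 166, 145 and 169 CPM on CCl4 and 17.1, 7.68 and 32.8 CPM on oil (log2 fold change 3.20, SE 0.318, adjusted p = 4.6e-06), and *Meg3*, an imprinted long noncoding RNA, was at 9.61, 15.8 and 11.5 CPM on CCl4 and 0.91, 0.6 and 0.481 CPM on oil (log2 fold change 2.98, SE 0.267, adjusted p = 1.6e-06). The CCl4 libraries lay above the oil libraries for all 3 genes. *Gpc3*, a heparan sulfate proteoglycan, fell by 1.85 on the log2 scale. Of 24 bile duct cell markers 12 were higher and 2 lower (9 and 2 with size factors), higher for *Anxa2*, a calcium-dependent membrane protein (2.18), *Prom1*, CD133 (1.84), *Cdh1*, E-cadherin (1.65) and *Sox4* (1.46). *Krt19*, the keratin of bile duct cells, was at 4.64, 6.58 and 4.54 CPM on CCl4 and 13.01, 10.6 and 8.41 CPM on oil (log2 fold change -0.90, SE 0.234, adjusted p = 0.011) and lost its call without oil library 1 (log2 fold change -0.75).

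Of 27 vascular endothelial and capillarization markers 8 were higher and 0 lower (5 and 0 with size factors), with *Esm1* at 2.02, *Fabp4* at 1.69, the Notch ligand *Jag1* at 1.25, *Cd34* at 1.16 and the adhesion molecule *Vcam1* at 0.97. Of 22 sinusoidal endothelial markers 3 were higher and 0 lower on CPM and 0 and 3 with size factors, so no direction held, and 1 or 2 were higher without each library in turn. Mesothelial markers, of the sheet that covers the liver, gave 3 higher and 10 lower of 20 (0 and 13 with size factors). The lower count was 4 without CCl4 library 1, oil library 1 or oil library 2 and 5 without CCl4 library 2, and the higher count 1 without oil library 2. *Gpm6a*, a membrane glycoprotein, was at 5.19, 3.70 and 4.43 CPM on CCl4 and 13.8, 11.04 and 9.86 CPM on oil (log2 fold change -1.21, SE 0.225, adjusted p = 0.0012).

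Lysosome genes gave 14 higher and 0 lower of 36 on CPM, but 5 and 3 with size factors. *Ctsd*, cathepsin D, and *Cd68*, of macrophage lysosomes, rose by 1.08 and 1.05 on the log2 scale. Cytosolic ribosomal proteins gave 17 higher and 0 lower of 75 on CPM, and 0 and 0 with size factors, with 6 higher without CCl4 library 1 and 9 without oil library 3. Circadian clock genes gave 5 higher and 2 lower of 20 (3 and 4 with size factors, and 3 higher without CCl4 library 2 or oil library 1), with the repressors *Cry1* and *Per2* at 1.23 and 1.22 and *Nr1d1*, REV-ERBα, at 2.54, 5.14 and 2.497 CPM on CCl4 and 11.01, 11.4 and 13.1 CPM on oil (log2 fold change -1.60, SE 0.258, adjusted p = 4.1e-04). The labels give no hour of sampling. Transcription factors and nuclear receptors of hepatocytes gave 4 higher and 2 lower of 33 on CPM and 0 and 6 with size factors, the higher count being 1 without CCl4 library 1 or oil library 2 and 2 without CCl4 library 2 or oil library 3. *Nr0b2*, the repressor SHP, fell by 1.15 on the log2 scale. Retinoid genes gave 4 higher and 2 lower of 25 (4 and 8 with size factors), with *Adh4*, an alcohol dehydrogenase, at -1.11.

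**Figure D4:**
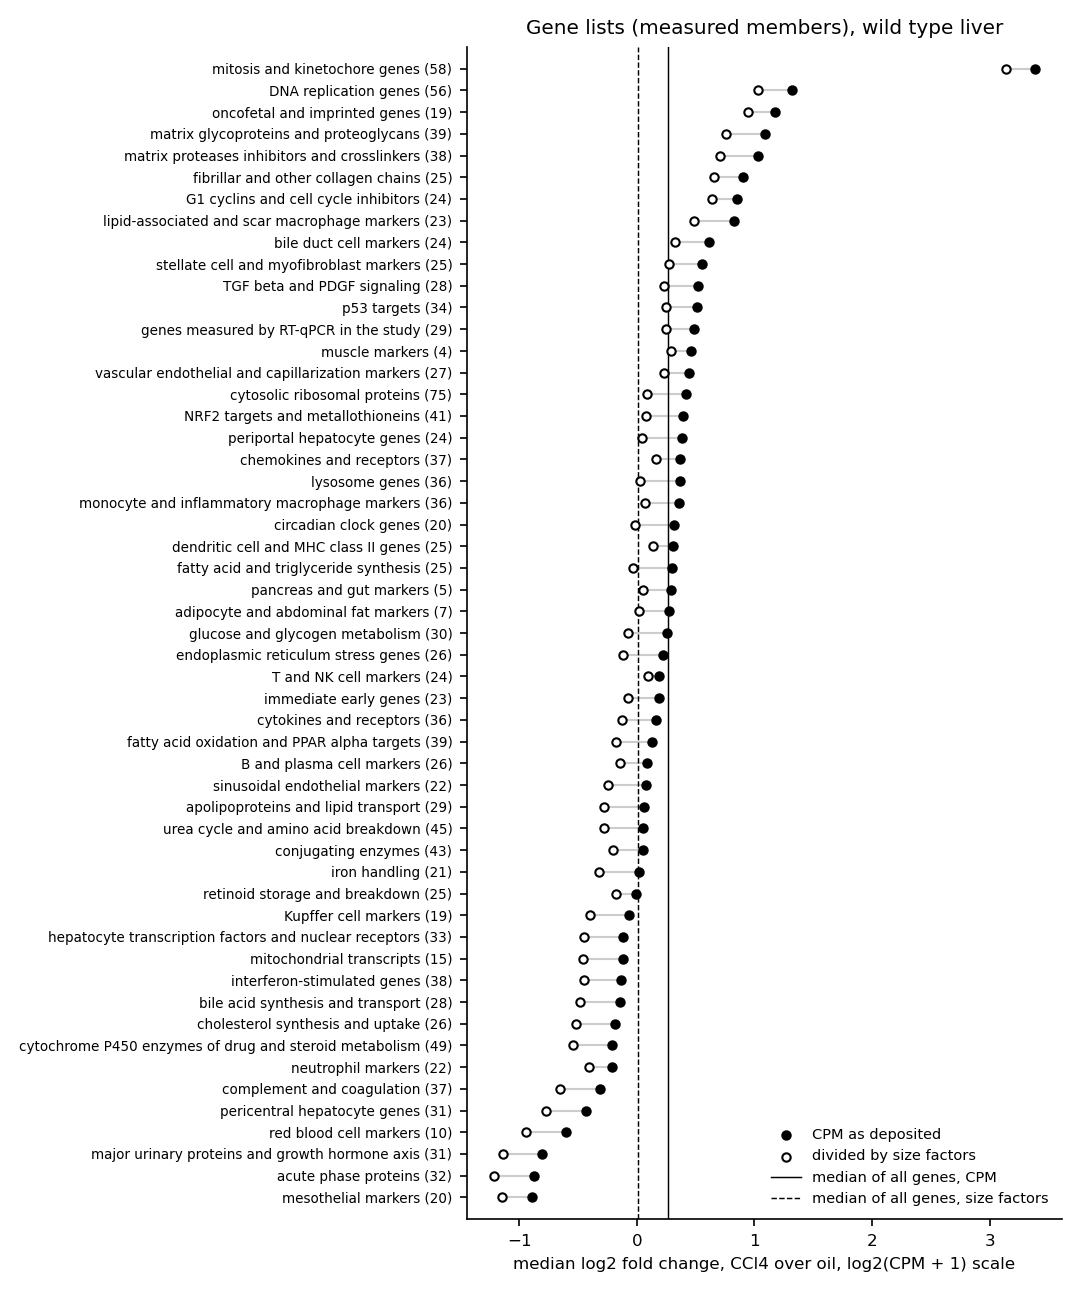
Median log2 fold change (CCl4 over oil, on log2(CPM + 1)) of the measured members of each of the 53 gene lists in wild type liver, with the number of members in parentheses, on CPM (filled circles) and after size factors (open circles), beside the medians of all genes (solid line 0.27, dashed line 0.013). Mitosis genes stand at 3.38 and 3.13. Filled circles are to be read against the solid line and open circles against the dashed line, not against 0.

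Markers of tissue that could come along with a liver piece were few. Red blood cell markers gave 1 higher and 1 lower of 10, adipocyte markers 1 and 0 of 7, pancreas and gut markers 1 and 1 of 5, and muscle markers 1 and 0 of 4. With size factors these counts were 1 and 2, 1 and 0, 0 and 1, and 0 and 0. Without CCl4 library 3, 6 red blood cell markers were called lower, and without CCl4 library 1, 0. Summed over its markers, the red blood cell list was at 602, 462 and 1431 CPM on CCl4 and 1518, 1343 and 595 CPM on oil, with overlapping groups. The adipocyte list was at 962, 1159.6 and 783 CPM on CCl4 and 722, 898 and 575 CPM on oil. The pancreas and gut list was at 84.2, 82.3 and 76.5 CPM on CCl4 and 90.6, 59.9 and 47.7 CPM on oil, and the muscle list at 20.3, 10.9 and 8.74 CPM on CCl4 and 10.01, 6.24 and 5.77 CPM on oil. Their part in the results above was not tested. A further list held the genes with RT-qPCR primers in the study, including *Gapdh*, which served there for normalization. For some of them, such as *Mpo*, RT-qPCR was reported only for oil against sham operation. *Gapdh* was called higher on CPM (log2 fold change 0.62) but not after size factors (0.28). Of 29 measured members of this list, *Gapdh* included, 10 were called higher and 1 lower in the libraries (7 and 2 with size factors). Those not called included *Tnf* at 0.331, 1.10 and 0.114 CPM on CCl4 and 0.546, 0 and 0 CPM on oil, *Il1b* at 3.20, 4.39 and 8.63 CPM on CCl4 and 14.2, 5.40 and 5.05 CPM on oil and *Ccl2*, which draws monocytes, at 18.3, 15.1 and 23.0 CPM on CCl4 and 36.8, 14.4 and 6.49 CPM on oil. *Ccl2* was called higher without oil library 1 (log2 fold change 0.87 against 0.26, adjusted p = 0.039, limma).

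The response to CCl4 was then set beside that of *Lcn2*-/- liver, with the difference tested as an interaction in a fit of all 12 libraries. *Lcn2* itself was at 16.7, 14.6 and 4.63 CPM on CCl4 and 7.74, 3.44 and 4.21 CPM on oil in *Lcn2*-/- liver, against 557, 424 and 405 and 345, 739 and 1045 CPM in wild type liver, so each library labelled *Lcn2*-/- lay far below each wild type library. Of the 15194 genes listed for both genotypes 165 (1.09%) had a higher log2 fold change in *Lcn2*-/- liver and 124 (0.816%) a lower one. With a library left out, the first count ran from 69 (without wild type CCl4 library 2) to 295 (without *Lcn2*-/- CCl4 library 3) and the second from 67 to 152. Which count was larger hung on the scale. They were 138 higher and 200 lower with size factors, 137 and 193 with TMM, 151 and 184 with edgeR and 362 and 347 with DESeq2. Collagen chains (0 and 0 of 25) and mitosis genes (2 and 0 of 58) gave few such calls in limma (0 to 7 and 0 to 4 higher with a library left out, and 4 and 8 with DESeq2), with medians of 0.90 in wild type and 1.38 in *Lcn2*-/- liver for collagens and 3.38 and 3.90 for mitosis. DNA replication genes gave 7 higher and 0 lower of 56 (6 and 0 with size factors, 12 and 0 with DESeq2, 2 to 8 higher with a library left out). *Cdk1* was at 94.6, 85.4 and 81.1 CPM on CCl4 and 1.85, 1.004 and 0.248 CPM on oil in *Lcn2*-/- liver, a log2 fold change of 5.51, which exceeded that of wild type liver by 1.37 (adjusted p = 0.043, limma).

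Acute phase genes were called in the higher direction more often than any other list on CPM, though not with DESeq2, which called 11 of them, 13 monocyte and inflammatory macrophage markers and 12 DNA replication genes. Of 31 listed for both genotypes 10 had a higher and 1 a lower response in *Lcn2*-/- liver (7 and 1 with size factors, 7 to 17 higher with a library left out), and the medians were -0.87 in wild type and 0.29 in *Lcn2*-/- liver. *Saa3* was at 52.1, 141 and 96.7 CPM on CCl4 and 247, 334 and 235 CPM on oil in wild type liver. In *Lcn2*-/- liver it was at 196, 86.0 and 138 CPM on CCl4 and 11.01, 9.83 and 11.2 CPM on oil. The difference of the log2 fold changes was 5.09 (SE 0.402, adjusted p = 3.1e-06, limma). The CCl4 libraries of both genotypes thus lay near each other, and the oil libraries of wild type liver lay higher than those of *Lcn2*-/- liver. *Saa1* followed the same order of means, with 1 CCl4 library far above the other 2, at 318, 499.5 and 3607 CPM on CCl4 and 152, 150.3 and 121 CPM on oil in *Lcn2*-/- liver, with a difference of 6.15 (adjusted p = 0.01). *Orm2* was at 252, 282 and 648 and 127, 173 and 206 CPM there, with a difference of 3.67 (adjusted p = 0.0015). Neutrophil genes gave 4 higher and 0 lower of 18: *S100a8* was at 50.5, 38.4 and 22.5 CPM on CCl4 and 10.4, 19.7 and 16.6 CPM on oil in *Lcn2*-/- liver (difference 2.53, adjusted p = 0.0011), and *Prtn3* at 8.97, 13.6 and 13.8 and 0.872, 2.22 and 5.83 CPM (difference 3.94, adjusted p = 0.0029).

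In the lower direction, 19 of 45 urea cycle and amino acid genes had a lower response in *Lcn2*-/- liver and 0 a higher one (23 and 0 with size factors, 13 to 21 lower with a library left out), with medians of 0.056 in wild type and -0.44 in *Lcn2*-/- liver. *Gpt*, alanine aminotransferase, was at 288, 293 and 292 CPM on CCl4 and 165, 160.4 and 166 CPM on oil in wild type and 212, 174 and 224 CPM on CCl4 and 249, 260.0 and 230.5 CPM on oil in *Lcn2*-/- liver (difference -1.11, adjusted p = 6.3e-04, limma). The P450 list gave 10 lower and 1 higher of 48 (15 and 1 with size factors, 4 to 13 lower with a library left out). The periportal list gave 8 lower and 0 higher of 24 (9 and 0 with size factors, 5 to 10 lower with a library left out). *Cyp2b10* was at 212, 229 and 172 CPM on CCl4 and 195, 191 and 149 CPM on oil in *Lcn2*-/- liver, a log2 fold change of 0.19 against 1.91 in wild type liver (difference -1.71, adjusted p = 0.0011). *Meg3* had the largest difference in this direction among genes with a mean of at least 5 CPM, at 5.27, 9.26 and 6.00 CPM on CCl4 and 5.99, 19.4 and 7.56 CPM on oil in *Lcn2*-/- liver (difference -3.46, adjusted p = 9.1e-04). The 3 wild type oil libraries, at 0.91, 0.6 and 0.481 CPM, lay below all others for this gene.

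**Figure D5:**
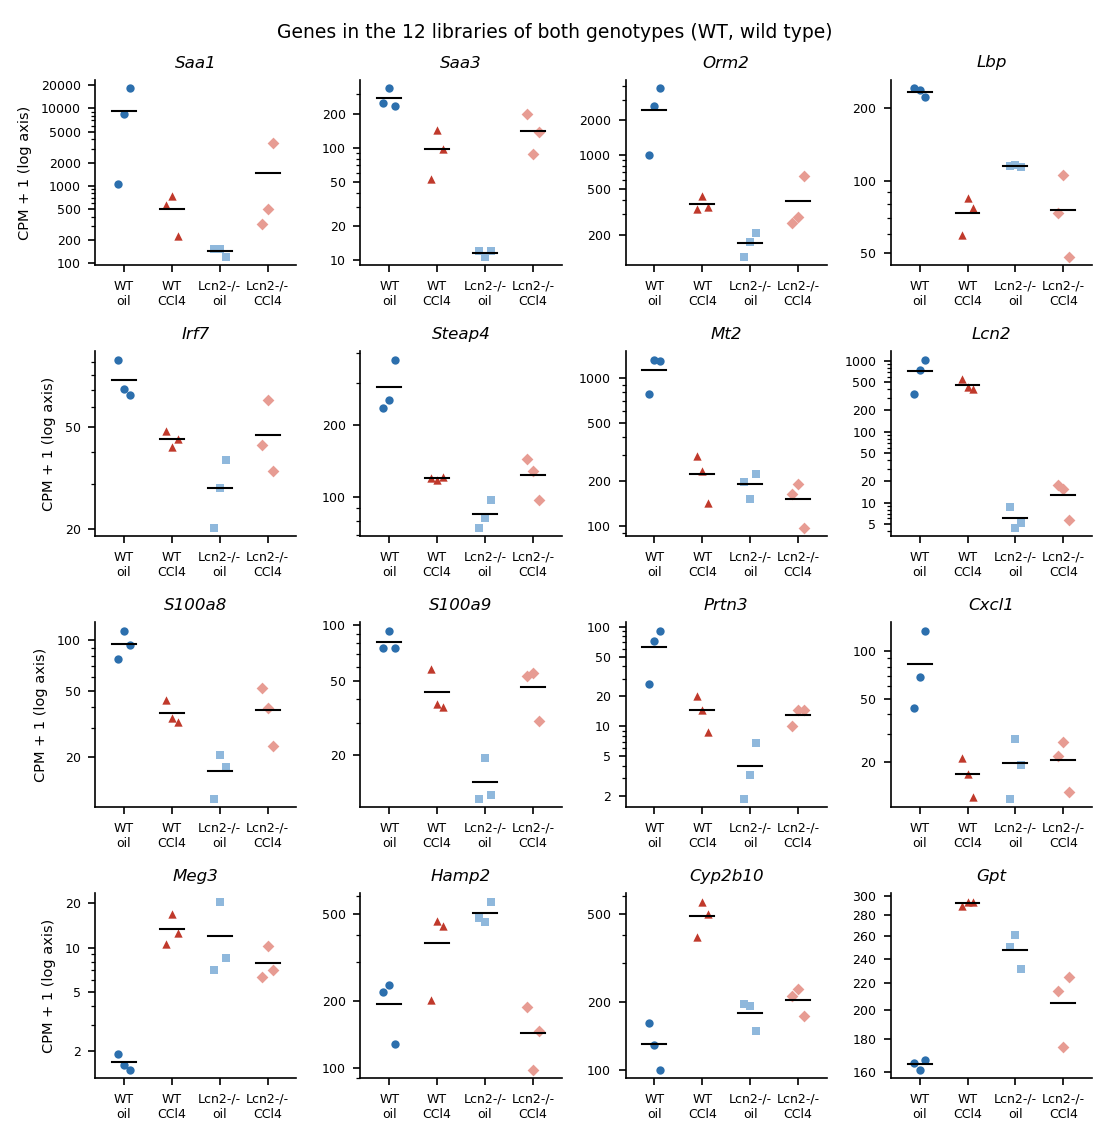
CPM + 1 on a log axis in all 12 libraries for 16 genes, with a black bar at the mean of n = 3 (WT, wild type). For the acute phase and neutrophil genes *Saa1*, *Saa3*, *Orm2*, *S100a8*, *S100a9* and *Prtn3* the *Lcn2*-/- oil libraries lie lowest and the wild type oil libraries highest, except that 1 *Lcn2*-/- CCl4 library of *Saa1* lies among the latter.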

How the data were processed

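Polyadenylated RNA of 12 liver samples (4 groups of 3) was read from its 3′ ends (rapid MACE kit, NextSeq 500). A second kit, TruSeq for total RNA, stands in the study's methods but not in the labels. The deposited values are CPM per gene, made by the authors from reads aligned to mm10 with STAR. The counter is Salmon in the methods and featureCounts in the submitters' notes. Per the file headers each genotype has its own table, whose columns of the authors' fold changes and p-values were not used, nor were 2 tables that compare the genotypes. All values corresponded to whole reads within 0.001, so reads were recovered for count tests and for depth, which is limited by counting error at 3 reads (0.206 to 0.361 CPM).

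CCl4 and oil were compared with limma 3.58.1 (R 4.3.3, variance trend) on log2(CPM + 1), over 15841 genes without a filter, because the values are CPM and not counts; the study's own test was DESeq2 1.30.0 (local fit, Wald), with the same thresholds. Fold changes are on that scale and understate the change of low genes. The difference between genotypes was an interaction over 15194 genes in both tables. P-values were adjusted over all genes by Benjamini and Hochberg. Alternatives were other pseudocounts (0.5 and 5), a filter at a mean of 1 CPM, size factors, TMM, edgeR 4.0.16 and DESeq2 1.42.0 on recovered reads, other thresholds, limma without the trend, a fit of all libraries, a replicate block and each library left out. Scripts were tested on simulated data.

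The genes and the 53 lists were chosen with earlier results of these data known. Named genes were the 15 called genes with the largest change in each direction (mean of at least 5 CPM), up to 5 called members of each list and direction by moderated statistic, those measured by RT-qPCR, and the 5 with the largest difference in each direction. *Alb*, *Ttr*, *Mup14* and *Cdkn1a* and the promoters printed were chosen after their values were seen. Gene positions are from GENCODE M21 (15774 genes matched) and promoters from RefSeq (GRCm38.p6). No symbol was given for 198 genes. A few genes that the naming rule picked are not reported here.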

Additional observations from a re-analysis of the deposited data

Results flagged for a closer look

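The genes of this section were set apart because their response to CCl4 differed between *Lcn2*-/- and wild type liver in the interaction test (limma, adjusted p of at most 0.05 over 15194 genes). Each value is the log2 fold change in *Lcn2*-/- liver minus that in wild type liver. Apart from the genes named by the difference itself, calls under other settings are given here only for *Vcam1*, *Cdk1* and *Cyp2e1*.

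Among acute phase, neutrophil and inflammatory genes the difference was 6.15 for *Saa1*, 5.09 for *Saa3*, 3.67 for *Orm2*, 3.94 for *Prtn3*, 2.597 for *S100a9*, 2.53 for *S100a8*, 2.28 for *Cxcl1*, 1.98 for *Mt2*, 1.76 for *Steap4*, 1.43 for *Irf7* and 1.19 for *Vcam1*. *Cxcl1* was at 20.7, 25.9 and 11.9 CPM on CCl4 and 10.7, 26.7 and 18.2 CPM on oil in *Lcn2*-/- liver, against 20.2, 15.8 and 11.01 and 42.8, 67.9 and 134 CPM in wild type liver. *Mt2* was at 163, 192 and 96.1 and 198, 152 and 223 CPM there. The call for *Vcam1* was lost with size factors, TMM and edgeR on recovered reads, and in a fit with a library left out.

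Among genes of division, stress and fetal or bile duct cells it was 3.02 for *Ly6d*, 2.49 for *Cdkn1a*, 2.19 for *Krt19*, 1.73 for *Jun*, 1.58 for *Rrm2*, 1.503 for *Anxa2*, 1.37 for *Cdk1* and -3.46 for *Meg3*. *Cdkn1a*, which did not pass in wild type liver, was at 51.4, 46.2 and 48.6 CPM on CCl4 and 3.49, 5.24 and 4.96 CPM on oil in *Lcn2*-/- liver. *Krt19* was at 6.59, 4.53 and 3.0001 and 1.20, 1.08 and 1.49 CPM there, so that its response had the opposite sign to that of wild type liver. The call for *Cdk1* was lost in a fit with a library left out.

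Among metabolic genes the difference was 2.04 for *Cyp3a41a*, 0.99 for *Idi1*, -0.75 for *Mat1a*, -0.74 for *Uroc1*, -0.97 for *Cyp2e1*, -1.11 for *Gpt*, -1.16 for *Aldh1b1*, -1.53 for *Cyp8b1*, -1.71 for *Cyp2b10* and -3.01 for *Mup19*. *Cyp2e1* was at 358, 248 and 196 CPM on CCl4 and 4145, 3169 and 3325 CPM on oil in *Lcn2*-/- liver (adjusted p = 0.047, limma). Its call was lost in a fit with a library left out. The call for *Mup19* was lost with edgeR (adjusted p = 0.49) and DESeq2 (adjusted p = 0.51) on recovered reads, with a pseudocount of 0.5 (adjusted p = 0.067, limma) and without 5 of the 12 libraries in turn (*Lcn2*-/- CCl4 libraries 1 and 2, *Lcn2*-/- oil libraries 1 and 2 and wild type CCl4 library 2, adjusted p = 0.066 to 0.090, limma).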

How the results depend on the processing

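Against 2931 genes called higher and 504 lower on CPM in wild type liver, size factors gave 1168 and 1110, TMM 1199 and 1080, edgeR on recovered reads 1150 and 1076, and DESeq2 1288 and 1246. A pseudocount of 5 gave 1738 higher, and a log2 fold change beyond 1 gave 1072 and 229. With a library left out the counts were 2032 to 2788 and 400 to 476. For the difference between genotypes (165 and 124), DESeq2 gave 362 and 347, edgeR 151 and 184, TMM 137 and 193 and size factors 138 and 200. With a library left out they were 69 to 295 and 67 to 152. At a log2 fold change beyond 1, 8 pericentral genes (15) and 13 acute phase genes (20) were called lower. Over the named genes, 4774 values under alternatives kept their state, whether called or not called, 530 lost a call and 15 gained one. No called gene changed sign. The 4774 include genes that had no call to lose. Of the values for the 10 genes named by the difference itself, 172 kept their call and 28 lost it, all of them of *Cyp4a10*, *Gm13775* and *Mup19*.

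No pairing by replicate number was apparent: deviations from the group means of equally numbered CCl4 and oil libraries correlated at -0.057, 0.017 and -0.093 across genes. For unequally numbered libraries the range was -0.074 to 0.112. Deviations within a group of 3 depend on one another, so these values cannot settle whether libraries were paired. With the number as a replicate block limma called 2850 higher and 498 lower, and 144 and 112 for the difference. Chosen after seeing the data, edgeR with the replicate block called 1045 higher and 1007 lower, and 11 collagen chains (18) higher.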

Other observations

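A few further genes were named for the size of their change or of its difference between genotypes. An unnamed gene with the identifier ENSMUSG00000104896 had no read in the CCl4 libraries of wild type liver and 31.8, 9.36 and 26.9 CPM in the oil libraries, at least 77.6-fold lower on CCl4 against 3 reads per library. In *Lcn2*-/- liver it was at 9.10, 22.2 and 16.1 CPM on CCl4 and 14.3, 24.6 and 12.3 CPM on oil, and the difference of the responses was 4.28 (adjusted p = 6.3e-04, limma). *Hamp2*, a second hepcidin gene, was at 202, 460.4 and 441 CPM on CCl4 and 219, 235 and 127 CPM on oil in wild type liver. It was at 188, 96.5 and 145 CPM on CCl4 and 479, 459 and 565 CPM on oil in *Lcn2*-/- liver, with a difference of -2.72 (adjusted p = 0.0016). *Cyp4a10*, a fatty acid hydroxylase, was at 136, 248 and 308 CPM on CCl4 and 375, 167 and 107 CPM on oil in wild type liver, and at 101, 217 and 119.6 CPM on CCl4 and 669, 499.7 and 471 CPM on oil in *Lcn2*-/- liver (difference -2.17, adjusted p = 0.036), a call that was lost without 8 of the 12 libraries in turn.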
